A study of Mus musculus with 41 samples.

Results

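The hypoxia response genes examined here were 10 mouse genes of the transcriptional answer to low oxygen, out of 21755 protein-coding genes annotated on chromosomes 1 to 19 and X. They were Hif1a, Epas1, Vegfa, Bnip3, Egln3, Ca9, Ndrg1, Adm, Ankrd37 and Pdk1, and each was found once in the GENCODE annotation of mm10, Ca9 under its mouse symbol Car9. Their chromatin was followed in 24 CUT&Tag peak lists, each a cell type combined with 1 of 4 histone post-translational modifications (hPTMs). CUT&Tag directs a transposase to a modified histone with an antibody and sequences the DNA cut beside it. Lactylation of H3 lysine 18 (H3K18la) derives from lactate, H3K27ac marks active promoters and enhancers, H3K4me3 marks promoters, and H3K27me3 marks chromatin held silent by Polycomb.

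Cells answer to low oxygen mainly through hypoxia-inducible factors. The oxygen-regulated subunits, HIF-1α (Hif1a) and HIF-2α (Epas1), are hydroxylated by prolyl hydroxylases such as Egln3 when oxygen is present, and are then degraded. When oxygen falls, they bind response elements with an RCGTG core and switch on genes for vessel growth (Vegfa, Adm), the restraint of pyruvate oxidation (Pdk1), acid export (Ca9), mitophagy (Bnip3) and stress adaptation (Ndrg1, Ankrd37). Egln3 is itself a target and closes a feedback loop.

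The cell types were E14 embryonic stem cells in serum with LIF (mESC-ser) or in 2i with LIF (mESC-2i), and from C57BL/6 mice primary myoblasts (MB), myotubes after 3 days of differentiation (MT), whole gastrocnemius muscle (GAS), macrophages grown from bone marrow for 7 days (BMDM), post-ischemia macrophages (PIM) and white adipocytes (ADIPO). PIM were sorted as CD45+ CD11b+ F4/80+ CD64+ cells from calf muscle 2 days after the femoral artery was ligated and cut out. GAS and PIM came from female C57Bl6/J mice of 8 to 12 weeks, and ADIPO nuclei were pulled down with streptavidin from AdipoCre-NuTRAP mice of 10 weeks, in which the Cre driver tags fat cell nuclei. The labels give every sample the treatment control, stem cells were used as whole cells and the others as nuclei, and GAS holds every cell type of the muscle. Macrophages of muscle with intact blood flow were not among the samples, so that ischemia, tissue of origin and culture cannot be told apart where PIM are set beside BMDM.

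The authors merged replicates before calling peaks. Each list therefore stands for 1 or 2 samples without a spread, and every difference below is a description of 2 lists with no test. A promoter was called where a peak shared at least 1 bp with the 2000 bp on either side of any TSS of the gene. The strength of a call is given as the percentile of the peak's total signal (coverage summed over its bases) among all peaks of its own list. Widths and called bases of the lists differed widely, and H3K18la lists covered 22.6 Mb in BMDM, 68.9 Mb in PIM and 123 Mb in GAS. All 10 macrophage markers had an H3K18la promoter peak in BMDM and in PIM, and so did 9 of 10 skeletal muscle markers in GAS and 10 of 10 in MT, 6 of 6 adipocyte markers in ADIPO and 6 of 6 stem cell markers in both stem cell lists. In GAS, where 36.1% of all genes had an H3K18la promoter peak, 8 of 8 endothelial, 5 of 6 fibroblast and 3 of 10 macrophage markers also had one. In PIM, where 37.8% of all genes did, so did 1 of 10 skeletal muscle, 2 of 8 endothelial, 4 of 8 neutrophil, 3 of 6 adipocyte and 0 of 6 fibroblast markers. The part of these other cells in the results was not tested.

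The promoters of 5 members are printed because the results divide them. The promoters of Bnip3 and Ankrd37 carried H3K27me3 in no list, while those of Egln3, Adm and Vegfa carried it in both macrophages. Those of Hif1a and Pdk1, which are not printed, also carried it in no list. The cores were not compared between these groups. Shown are the 250 bases before the RefSeq TSS (GRCm38.p6), 5′ to 3′ on the strand of the gene, with the 2 forms of the core, ACGTG on the one hand and GCGTG on the other, in capitals on either strand.
Bnip3, chr7:138909507-138909756, minus strand: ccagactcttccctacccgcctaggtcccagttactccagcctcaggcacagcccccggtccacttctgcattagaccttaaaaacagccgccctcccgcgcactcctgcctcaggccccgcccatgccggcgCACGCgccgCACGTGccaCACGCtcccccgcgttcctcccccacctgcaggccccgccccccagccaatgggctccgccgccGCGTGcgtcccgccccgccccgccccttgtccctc
Ankrd37, chr8:45999851-46000100, minus strand: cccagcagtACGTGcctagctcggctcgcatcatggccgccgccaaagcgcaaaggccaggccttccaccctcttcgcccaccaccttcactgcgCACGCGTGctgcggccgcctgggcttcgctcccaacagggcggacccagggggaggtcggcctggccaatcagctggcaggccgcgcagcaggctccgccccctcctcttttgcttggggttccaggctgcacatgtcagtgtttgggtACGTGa
Egln3, chr12:54203875-54204124, minus strand: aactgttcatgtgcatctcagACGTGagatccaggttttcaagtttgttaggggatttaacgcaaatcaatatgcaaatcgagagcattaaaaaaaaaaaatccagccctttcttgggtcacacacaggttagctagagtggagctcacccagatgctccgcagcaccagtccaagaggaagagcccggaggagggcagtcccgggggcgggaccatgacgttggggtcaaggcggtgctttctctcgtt
Adm, chr7:110627407-110627656, plus strand: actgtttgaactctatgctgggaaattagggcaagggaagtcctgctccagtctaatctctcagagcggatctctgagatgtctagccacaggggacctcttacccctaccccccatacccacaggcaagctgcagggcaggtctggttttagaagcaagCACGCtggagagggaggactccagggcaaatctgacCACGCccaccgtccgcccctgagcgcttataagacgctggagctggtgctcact
Vegfa, chr17:46032378-46032627, minus strand: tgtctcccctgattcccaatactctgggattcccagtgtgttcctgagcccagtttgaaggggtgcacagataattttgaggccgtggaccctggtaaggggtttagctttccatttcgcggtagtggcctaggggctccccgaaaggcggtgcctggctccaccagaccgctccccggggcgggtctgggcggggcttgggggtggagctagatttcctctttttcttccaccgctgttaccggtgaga

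The RefSeq promoter table held 8 of the 10 genes, and Epas1 and Ndrg1 were not in it. Over its 300-base windows, from 250 bases before to 50 bases after the TSS, a core of either kind on either strand was found in 7 of these 8 genes and in 49.8% of the 21045 windows of protein-coding genes. ACGTG was found in 5 of the 8 and in 21.1% of all windows. Bnip3 had 5 matches, Ankrd37 had 4, Hif1a had 3, Pdk1 and Adm had 2 each, and Egln3 and Ca9 had 1 each. Of all windows, 11.4% had 3 or more. A CACGTG, as in the Bnip3 promoter, counts on both strands and so gives 2 overlapping matches. The table held 2 windows for Vegfa and for Pdk1, of which the first in its order is counted. That of Vegfa had no match, which says only that these letters are not within it, and its second window, further downstream, had 2. The windows of Bnip3 (GC content 71.7%), Hif1a (69.3%) and Ankrd37 (69%) lay above the median of 56.7%, as did those of Pdk1 (66%), Vegfa (62%) and Ca9 (58.3%), whereas Egln3 (54.7%) and Adm (56%) lay just below it. Letters alone do not show a bound site.

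**Figure D1:**
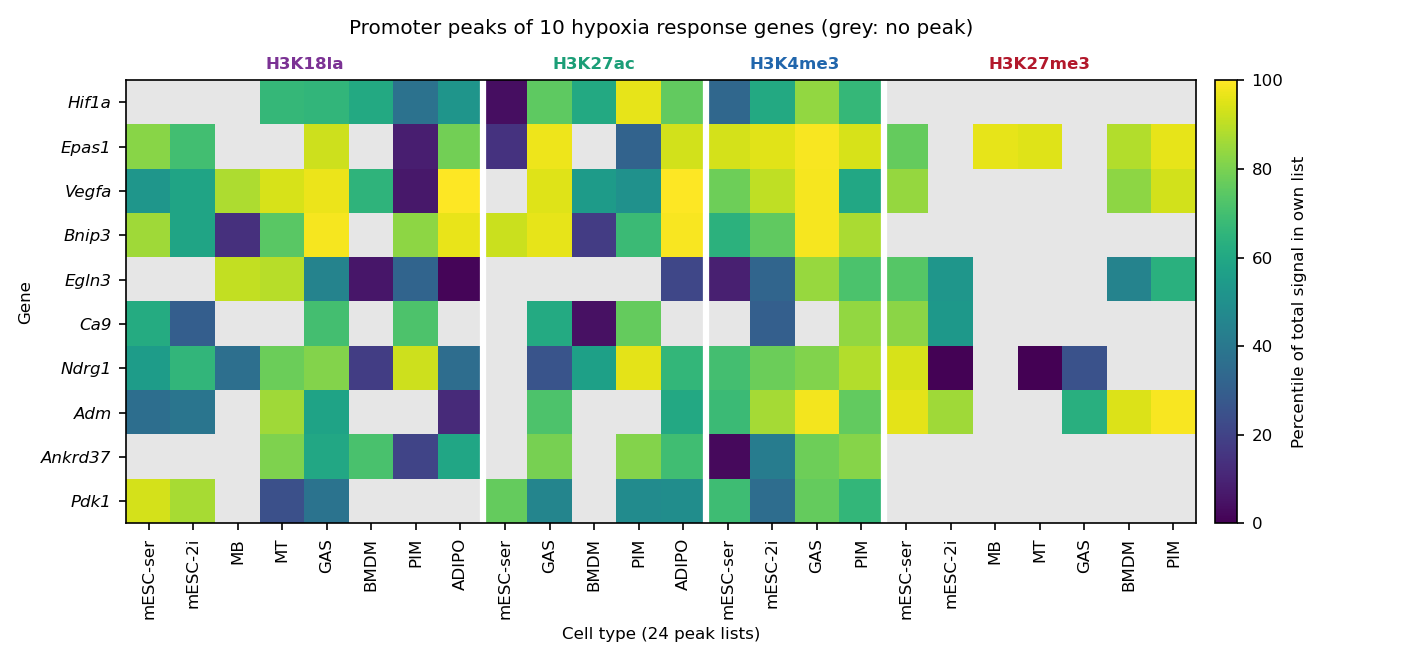
Percentile of total signal of the strongest promoter peak of each gene (rows) in the 24 lists (columns, grouped by hPTM), with grey where no peak was called. GAS has an H3K18la call at all 10 genes, and the H3K27me3 block is grey throughout for Hif1a, Bnip3, Ankrd37 and Pdk1.

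H3K18la was widespread at the promoters of these genes. Taking each gene in each of 8 cell types, 57 of 80 promoters had a peak (71.2%), beside 31.8% for all protein-coding genes. GAS had all 10 promoters called, against 36.1% of all genes. MT, PIM and ADIPO had 8 of 10 each, where the shares of all genes were 34.8%, 37.8% and 44.7%. Both stem cell lists had the same 7 of 10, with 33.4% of all genes called in mESC-ser and 37.8% in mESC-2i. BMDM had 5 of 10 (18.5% of all genes) and MB had 4 of 10 (11.1%). The members had longer promoters than most genes, with a median of 9512 bp from 5 TSSs against 6938 bp from 3 TSSs. With 1 TSS per gene, the 8 H3K18la counts were equal to those above except in MT and ADIPO, which had 7 each, and the shares of all genes were 8.33% to 40.8%.

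**Figure D2:**
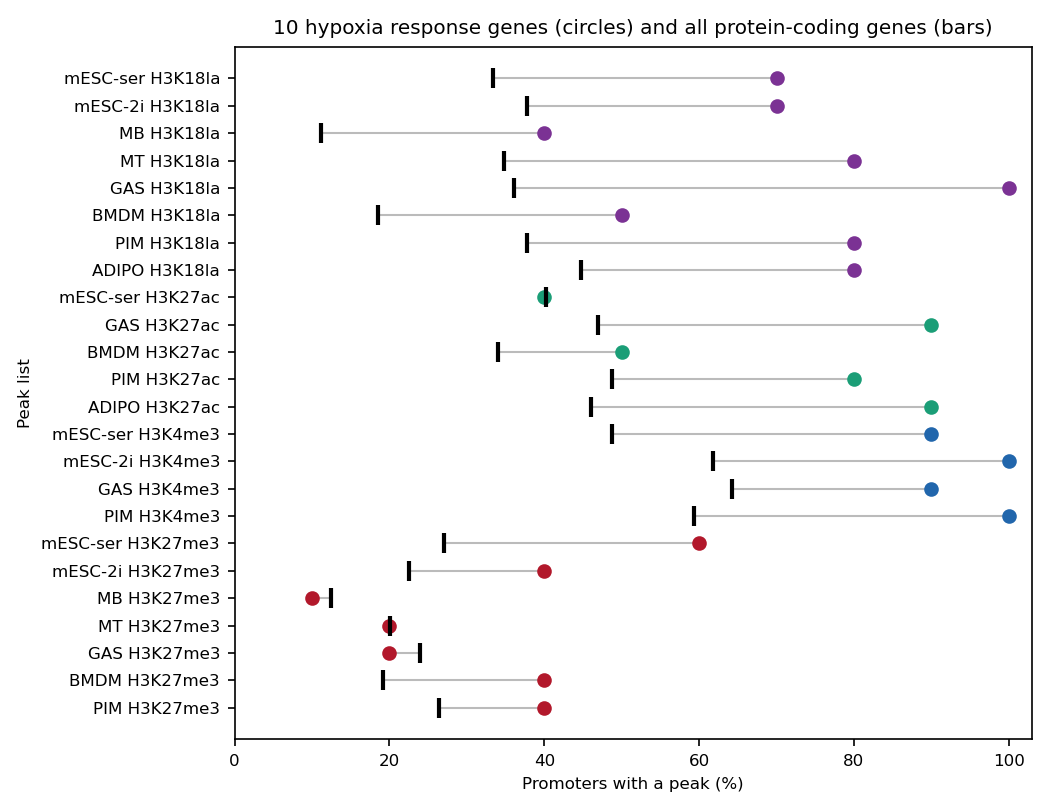
Percent of promoters with a peak in each of the 24 lists for the 10 genes (circles, coloured by hPTM) and for all protein-coding genes (black bars). The circles lie to the right of the bars in every H3K18la and H3K4me3 list, and at or left of the bars in mESC-ser H3K27ac and in the MB, MT and GAS H3K27me3 lists.

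H3K27ac was called at 4 of 10 promoters in mESC-ser (40.2% of all genes), 9 in GAS (47%), 5 in BMDM (34%), 8 in PIM (48.8%) and 9 in ADIPO (46.1%). The mESC-ser share thus lay at the background. H3K4me3 was called at 9 promoters in mESC-ser (48.8%), all 10 in mESC-2i (61.8%), 9 in GAS (64.2%) and all 10 in PIM (59.4%), and Ca9 was the gene without a call in mESC-ser and GAS. H3K27me3 was called at 6 promoters in mESC-ser (27%), 4 in mESC-2i (22.5%), 1 in MB (12.5%), 2 in MT (20.1%), 2 in GAS (23.9%), 4 in BMDM (19.2%) and 4 in PIM (26.4%). The counts in MB, MT and GAS lay at or below the background.

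Vegfa and Ndrg1 were the genes with an H3K18la call in all 8 cell types, a pattern that 2.69% of other protein-coding genes had. Vegfa, the main growth factor for new blood vessels, had its largest H3K18la domain in ADIPO, where a peak of 29670 bp reached from 1.27 to 30.9 kb downstream of the TSS and lay at percentile 99.8. In GAS the strongest peak was 11695 bp wide (97.0), in MT 13715 bp (94.1) and in MB 7505 bp (87.8). In the macrophages it was 1643 bp wide in BMDM (65.0) and 805 bp in PIM (6.50). Peak widths differ between lists, and within its own list the BMDM peak was at width percentile 83.9, the PIM peak at 5.80 and the ADIPO peak at 99.9. The PIM peak was thus narrow for its list and the BMDM peak was not. Both macrophage peaks lay upstream of the main TSS (transcript Vegfa-201) and covered the RefSeq TSS of the printed promoter.

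Ndrg1, a stress-induced gene of the cell surface and cytoplasm, showed a different order. Its strongest H3K18la peak lay at percentile 92.4 in PIM (5639 bp), 81.5 in GAS (5421 bp), 77.5 in MT (2378 bp), 65.9 in mESC-2i, 55.2 in mESC-ser, 36.4 in MB, 35.9 in ADIPO (1203 bp) and 18.2 in BMDM (678 bp). PIM thus had the highest rank and BMDM the lowest by total signal. By the maximum signal of these peaks PIM was again highest (86.8) but MB lowest (2.31), and by mean signal MT (95.7) lay above PIM (74.9). Bnip3, a mitochondrial receptor for mitophagy, lay at 98.5 in GAS (14350 bp), 96.6 in ADIPO (11201 bp), 85.7 in mESC-ser, 83.0 in PIM (3091 bp), 74.3 in MT, 58.5 in mESC-2i and 13.8 in MB, and was not called in BMDM.

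Among the regulators, Hif1a was called for H3K18la in the differentiated cells MT (66.7), GAS (65.9), BMDM (60.8), ADIPO (52.0) and PIM (37.6), and in neither stem cell list nor MB. All of these peaks reached within 2000 bp of the TSS of transcript Hif1a-201. Epas1 had calls in mESC-ser (82.2) and mESC-2i (69.9) and none in MB, MT or BMDM. It had peaks in GAS (92.4), ADIPO (78.9) and PIM (8.52). Egln3, one of the prolyl hydroxylases, ranked highest in MB (90.8, 6100 bp) and MT (89.4, 10040 bp), lower in GAS (44.7), PIM (32.2), BMDM (6.01) and ADIPO (1.28), and was without a call in the stem cells. The myoblast list, of 1 sample, thus had Egln3 as its highest of 4 called members.

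Pdk1, the kinase that holds back pyruvate dehydrogenase, had its strongest H3K18la peaks in mESC-ser (93.5) and mESC-2i (86.9), weaker ones in GAS (38.1) and MT (24.5), and none in BMDM, PIM or ADIPO. In the stem cells this peak lay upstream, from -7.43 to -1.58 kb in mESC-ser. Adm, the vasodilator peptide adrenomedullin, was called in MT (85.6), GAS (57.9), mESC-2i (38.8), mESC-ser (36.0) and ADIPO (11.98), and in neither macrophage. The MT and ADIPO peaks of Adm began at 2.15 and 2.25 kb past its main TSS and were lost when only that TSS was used. Ca9, the carbonic anhydrase that acidifies the outside of the cell, was called in PIM (71.9), GAS (69.9), mESC-ser (61.5) and mESC-2i (30.0). The mESC-2i peak also covered a TSS of the neighbouring muscle gene Tpm2. Ankrd37, an ankyrin repeat gene, was called in MT (80.7), BMDM (71.4), GAS (60.0), ADIPO (59.0) and PIM (20.5), and its peaks in GAS and ADIPO also covered a TSS of Lrp2bp. The MT peak ranked here lay upstream, from -8.4 to -5.07 kb, while those of the other lists covered the main TSS.

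Macrophages from ischemic muscle were then compared with those grown in culture and with muscle. In H3K18la, Hif1a, Vegfa, Egln3, Ndrg1 and Ankrd37 were called in PIM, BMDM and GAS (5 of 10 members, 12.7% of all genes). Epas1, Bnip3 and Ca9 were called in PIM and not in BMDM (3 of 10, 20.6% of all genes), and all 3 were called in GAS as well. No member was called in PIM and in neither BMDM nor GAS, where 9.56% of all genes were. Adm and Pdk1 were called in GAS and in neither macrophage (11.7% of all genes). No member was called in BMDM and not in PIM, a pattern that 1.34% of all genes had.

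These counts turned on the size of the lists. When all H3K18la lists were reduced by total signal to the 22.6 Mb of the smallest, BMDM kept its 5 calls, PIM kept Ndrg1 alone and GAS kept Vegfa and Bnip3. The shares of all genes were then 18.5%, 6.84% and 3.37%. PIM without BMDM went from 3 members to 0, and BMDM without PIM from 0 to 4 (Hif1a, Vegfa, Egln3 and Ankrd37). Over all genes these patterns went from 20.6% to 1.14% and from 1.34% to 12.8%, so that the turn was not one of the members alone. With the 5000 strongest peaks of each list, Ndrg1 was called in PIM and in neither BMDM nor GAS (3.3% of all genes), and no member in BMDM and not in PIM (1.45%). The direction of the H3K18la difference thus depended on how the lists were made comparable.

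**Figure D3:**
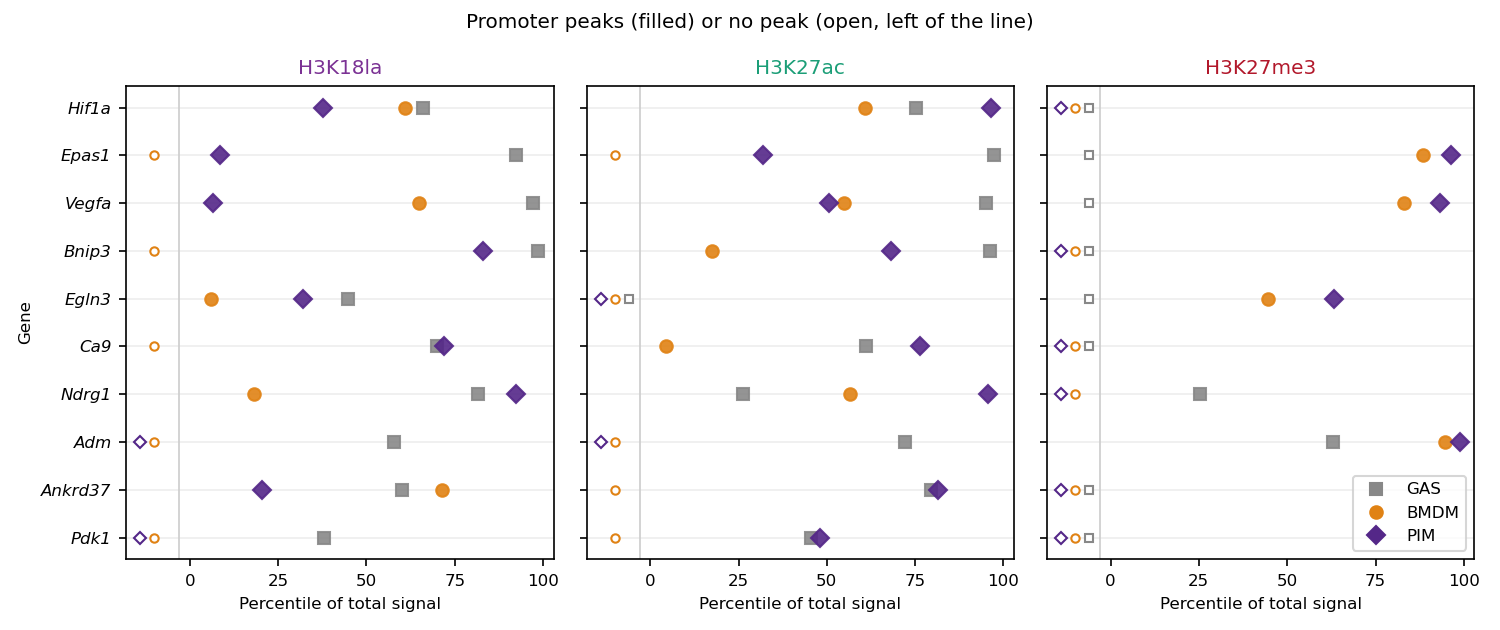
Percentile of total signal of the strongest promoter peak in GAS (squares), BMDM (circles) and PIM (diamonds) for H3K18la, H3K27ac and H3K27me3; open symbols left of the line mark genes without a peak. In PIM, Ndrg1 lies above 90 for H3K18la and H3K27ac, while Vegfa lies below 10 for H3K18la and above 90 for H3K27me3.

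The rank within the own list showed which members stood high. In PIM H3K18la, Ndrg1 (92.4), Bnip3 (83.0) and Ca9 (71.9) lay above the median of 59.7 over all called promoters, and Hif1a (37.6), Egln3 (32.2), Ankrd37 (20.5), Epas1 (8.52) and Vegfa (6.50) lay below it. The median of the 8 called members was 34.9. In BMDM the 5 called members had a median of 60.8 beside 51.2 over all called promoters, and in GAS the 10 had 67.9 beside 61.4. Ranked by the maximum signal of the peak, the difference between members and all genes changed sign in PIM (to 0.863 percentile points) and in BMDM (to -16.0), so that the medians in macrophages depended on the measure of strength.

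In H3K18la, 5 members had a call in both macrophages. Ndrg1 lay 74.2 percentile points and Egln3 26.1 points higher in PIM than in BMDM, and Vegfa was at -58.5, Ankrd37 at -50.8 and Hif1a at -23.3 points. The median was -23.3 points, where over the 3741 genes called in both it was 14.9. By the maximum signal of the same peaks, the percentiles in PIM and BMDM were 86.8 and 16.0 for Ndrg1, 17.5 and 20.6 for Egln3, 30.0 and 35.4 for Vegfa, 54.6 and 61.6 for Ankrd37, and 68.3 and 67.3 for Hif1a. Ndrg1 thus stood far higher in PIM by both measures, Egln3 and Hif1a changed sign, and Vegfa and Ankrd37 came close together. By mean signal, Vegfa (39.3 in PIM, 21.0 in BMDM) and Ankrd37 (60.1 and 42.2) were higher in PIM, so that their direction depended on the measure. The PIM peak of Ndrg1 was 5639 bp wide against 678 bp in BMDM, and that of Vegfa was 805 bp against 1643 bp.

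In H3K27ac, PIM had 8 promoters called and BMDM 5, and the 5 of BMDM were all among the 8. A call in BMDM without one in PIM was rare among all genes too (0.777%). Epas1 (32.0), Ankrd37 (81.6) and Pdk1 (48.1) were called in PIM and not in BMDM (3 of 10, 15.5% of all genes). At equal called bases the PIM list, which is the smallest and so unchanged, kept 8 members and BMDM kept Hif1a, Vegfa and Ndrg1, so that PIM without BMDM came to 5 in place of 3. The shares of all genes were then 48.8% in PIM, 27.7% in BMDM and 21.4% in PIM without BMDM. With the 5000 strongest peaks of each list, the members called in PIM and not in BMDM were Hif1a, Ndrg1 and Ankrd37 (7.1% of all genes). Hif1a lay at 96.4 in PIM, 75.4 in GAS and 60.7 in BMDM. Ndrg1 lay at 95.7 in PIM, 56.7 in BMDM and 26.2 in GAS, where the peak was inside the gene at 16.6 to 19.9 kb and the main TSS had none. Ca9 lay at 76.2 in PIM and 4.59 in BMDM, and Bnip3 at 68.1 and 17.6. Vegfa lay at 50.6 and 54.7. By the maximum signal of these peaks Vegfa was at 49.9 in PIM and 17.0 in BMDM, so that its direction turned, and the other 4 were again higher in PIM. Over the 7231 genes called in both lists, the median difference was 18.9 points, and over these 5 members it was 39.0. Both H3K27ac macrophage lists came from 1 sample each.

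H3K27me3 divided the members the same way in both macrophages. Epas1, Vegfa, Egln3 and Adm were called in PIM and in BMDM (4 of 10, 17.7% of all genes), and the other 6 in neither. The percentiles in PIM and BMDM were 99.0 and 94.7 for Adm, 96.4 and 88.4 for Epas1, 93.2 and 83.2 for Vegfa, and 63.4 and 44.6 for Egln3. The Adm domain was 23862 bp wide in PIM and 22264 bp in BMDM and spanned the whole gene of 2.16 kb. Epas1 had 13925 and 15832 bp, Vegfa 12300 and 11735 bp, and Egln3 3710 and 3352 bp. At equal called bases Adm, Epas1 and Vegfa were still called in both, and Egln3 in neither, with 14.2% of all genes called in PIM and 10% in BMDM.

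GAS differed from both macrophages in H3K27me3. Of the 4, only Adm was called there (63.0, 3471 bp), so that Epas1, Vegfa and Egln3 were called in PIM and not in GAS (3 of 10, 11.1% of all genes). With equal called bases or the 5000 strongest peaks of each list these were Epas1, Vegfa and Adm (8.26% and 11% of all genes), since Egln3 was then not called in PIM nor Adm in GAS. Ndrg1 had low-ranking H3K27me3 peaks in GAS (25.4) and MT (0.175), which did not cover the main TSS. Epas1 had H3K27me3 in the muscle cultures MB (96.4, 10233 bp) and MT (95.1, 24395 bp), which had no H3K18la there. In whole muscle, peaks of different cell types can lie at 1 promoter, and fewer cells with a mark cannot be told apart from less of it per cell.

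Promoters with H3K4me3 and H3K27me3 together are often called bivalent. In PIM these were Epas1, Vegfa, Egln3 and Adm (4 of 10, 14.5% of all genes), in mESC-ser Epas1, Vegfa, Egln3, Ndrg1 and Adm (5 of 10, 12.8%), in mESC-2i Egln3, Ca9, Ndrg1 and Adm (4 of 10, 14.2%), and in GAS Ndrg1 and Adm (2 of 10, 12.1%). Adm was thus the one member with both marks in all 4 cell types, a pattern whose share of all genes was not computed. At Ndrg1 in GAS the 2 marks shared only 155 bp. The strongest H3K27me3 peak there lay at 2.89 to 5.36 kb and did not cover the main TSS. With the 5000 strongest peaks of each list, 1 member had both marks in PIM (2.11% of all genes), and at equal called bases 3 did (4.2%). In PIM the whole 4368 bp of the Adm promoter lay under both marks, and it had neither H3K18la nor H3K27ac. In GAS the same promoter had all 4 marks, with 3225 bp shared by H3K18la and H3K27me3.

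H3K18la and H3K27me3 met at the promoters of Epas1, Vegfa and Egln3 in PIM (3 of 10, 6.52% of all genes). All 641 bp of H3K18la at Epas1, all 805 bp at Vegfa and all 1418 bp at Egln3 lay under H3K27me3. In BMDM, Vegfa and Egln3 had both marks (2 of 10, 1.24%), with 1193 bp shared at Vegfa and 0 bp at Egln3, where H3K18la ended at -0.890 kb and H3K27me3 began at -0.309 kb. The PIM H3K18la peaks at Epas1 (8.52) and Vegfa (6.50) ranked low in that list by total signal. By maximum signal these 2 peaks lay at 33.8 and 30.0, and by mean signal at 59.6 and 39.3. None of the 3 promoters was called when H3K18la lists were reduced to equal bases. Lists were made from many cells, so marks on the same bases need not lie in the same cell. By contrast, Hif1a, Bnip3, Ca9, Ndrg1 and Ankrd37 in PIM had H3K18la, H3K27ac and H3K4me3 without H3K27me3 (5 of 10, 29.1% of all genes), and Pdk1 had H3K27ac and H3K4me3.

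Beyond promoters, the gene body with 10 kb on each side was searched. H3K18la peaks were found in the windows of all 10 members in GAS, 8 in PIM and 5 in BMDM, beside 51.9%, 53.2% and 33.3% of all genes. H3K27me3 was found in 6 windows in PIM (39.6% of all genes). In GAS, H3K18la covered 64.5% of the Vegfa window, 51.2% of the Bnip3 window and 46.8% of the Epas1 window, against 2.28%, 8.09% and 0.643% in PIM. Ndrg1 (28.8% and 16.4%), Ca9 (30.7% and 7.84%) and Ankrd37 (11.8% and 2.61%) also had more in GAS, and Adm (33.3%) and Pdk1 (14.5%) had none in PIM. The Ca9 window in GAS held a peak of 6739 bp over the promoter of the muscle gene Tpm2 beside the 3670 bp at Ca9 itself, and that of Ankrd37 held 1448 bp at a promoter of Lrp2bp. Egln3 (10.0% and 14.2%) and Hif1a (3.73% and 4.47%) had more in PIM. In BMDM 5 windows had no peak and the others had 1.12% to 5.25%. The whole GAS list covered 123 Mb against 68.9 Mb in PIM and 22.6 Mb in BMDM. Inside Epas1, the GAS list had 5 H3K18la peaks outside promoters, the widest of them 14254 bp from 21.5 to 35.8 kb, and PIM had none.

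In PIM, 6 H3K18la peaks in the windows lay clear of protein-coding promoters, at Hif1a, Bnip3, Egln3 and Ndrg1. The 2 at Egln3 were in an intron, and the stronger, at 10.5 to 13.5 kb (2936 bp, percentile 81.0), outranked the promoter peak (32.2). This element was also called for H3K18la in MB, GAS, BMDM and ADIPO, for H3K27ac in PIM and ADIPO for H3K4me3 in mESC-2i, GAS and PIM, and for H3K27me3 in both stem cell lists. In BMDM it lay at 64.4, again above the promoter peak (6.01). The human EGLN3 gene is known to have a hypoxia response element in an intron, as background. The peak of Bnip3 at -10.6 to -10.0 kb (672 bp, percentile 8.56) ranked low and lay mostly outside the searched window, which only its near end reached. It was shared with mESC-2i, MT, GAS and ADIPO, in which it was wider, with 9911 bp in GAS (96.8). It carried H3K27ac in GAS, PIM and ADIPO and H3K4me3 in GAS and PIM.

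The 300 bases around the highest PIM signal of these 2 elements are shown on the plus strand (both genes lie on the minus strand), with the cores in capitals as before.
Egln3 intron, chr12:54192000-54192299: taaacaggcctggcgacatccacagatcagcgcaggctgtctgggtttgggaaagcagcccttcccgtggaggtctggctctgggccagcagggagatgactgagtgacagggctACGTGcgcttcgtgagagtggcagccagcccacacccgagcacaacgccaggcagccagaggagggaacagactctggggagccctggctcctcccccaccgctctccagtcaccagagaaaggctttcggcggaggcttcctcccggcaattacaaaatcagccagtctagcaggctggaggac
Bnip3 upstream, chr7:138919638-138919937: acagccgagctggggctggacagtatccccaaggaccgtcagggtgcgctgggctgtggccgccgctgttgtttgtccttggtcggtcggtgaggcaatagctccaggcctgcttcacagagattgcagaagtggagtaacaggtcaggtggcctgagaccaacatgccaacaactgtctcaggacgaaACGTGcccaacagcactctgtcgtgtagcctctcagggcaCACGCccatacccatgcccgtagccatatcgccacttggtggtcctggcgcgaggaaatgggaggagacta

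The Egln3 window had 1 match and the Bnip3 window had 2, where 31.3% of the 21768 PIM H3K18la peaks clear of protein-coding promoters had at least 1 and 11% had 2 or more. The other distal peaks of Hif1a and Egln3 had 1 and 2 matches, and those of Ndrg1 were not read. The second Egln3 peak, at 14.9 to 16.6 kb, was called for H3K18la in MB, MT and PIM, for H3K4me3 in PIM and for H3K27me3 in both stem cell lists and PIM. Ndrg1 had distal PIM peaks at 3.97 to 7.24 kb (72.9) and at -11.96 to -9.01 kb (73.9), both also called in GAS H3K18la and neither in BMDM.

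The patterns over all 24 lists were compared with those of all other protein-coding genes, a likeness that counts calls and says nothing of shared control. Hif1a had the same calls as 120 other genes and Bnip3 as 102, Pdk1 as 7, Epas1 as 2 and Vegfa and Ankrd37 as 1 each. Egln3, Ca9, Ndrg1 and Adm shared their pattern with no other gene. Allowing 2 lists to differ, Bnip3 had 2116 matches and Hif1a 1554, while Egln3 and Ca9 still had none.

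A wider list of 41 pathway genes, 9 regulators and 32 targets, set the members beside the rest of the pathway. H3K18la was called at 27 of the 41 promoters in PIM, 23 in BMDM and 33 in GAS (37.8%, 18.5% and 36.1% of all genes), and H3K27ac at 29, 26 and 34 (48.8%, 34% and 47%). Of the regulators, 5 were called for H3K18la in PIM, 3 in BMDM and 7 in GAS, and of the targets 22, 20 and 26, beside the same shares of all genes. As shares these were 55.6%, 33.3% and 77.8% of the regulators and 68.8%, 62.5% and 81.2% of the targets. Egln2, Siah2, Higd1a, Fam162a and Mif were called for H3K18la in PIM and not in BMDM (5 of 41, against 20.6% of all genes). Of these, Higd1a, a mitochondrial protein, was not called in GAS either (17.0, 1572 bp), but it had H3K27ac in all 3 lists. Nos2, the inducible nitric oxide synthase, was called in BMDM (1.09) and not in PIM. H3K27me3 was called at 11 of 41 promoters in PIM, 9 in BMDM and 6 in GAS (26.4%, 19.2% and 23.9% of all genes), near the background in the macrophages and below it in GAS.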

How the data were processed

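CUT&Tag peak lists of 41 samples in 24 groups of cell type and mark were analysed, 17 of 2 samples and 7 of 1 sample. The authors trimmed reads (Trim Galore 0.6.6), aligned them to mm10 (Bowtie2 2.4.4), computed fragment coverage (bedtools 2.30), merged replicates and called peaks with SEACR 1.3 (stringent, top share of regions without a control). The deposited lists give, for each peak, the authors' total and maximum signal, both whole-number coverage not scaled for depth, so that signal was ranked within a list and never compared in size between lists. The mESC lists without a medium in their name were taken as mESC-ser. Sequencing depth was not analysed here, so that its part in the calls is not known. Lists with more called bases did not always call more promoters. For H3K27ac, PIM (27.4 Mb) had 48.8% of all genes called and GAS (197 Mb) had 47%.

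Peaks on chromosomes 1 to 19 and X were joined to GENCODE vM21 (GRCm38) with Python 3.11.15 and NumPy 2.4.6, and figures were drawn with matplotlib 3.10.9. Overlaps and ranks were checked against bedtools 2.31.1 on simulated peaks. The percentile is the share of peaks of the list with lower total signal, with ties shared. The main TSS was that of the lowest-numbered CCDS transcript. No test was run, since replicates, where there were any, had been merged before peaks were called. Alternatives were promoters of 1000 bp, coding transcripts alone, 200 bp of overlap, the 5000 strongest peaks, equal called bases, other ranks and, chosen after seeing the data, 1 TSS per gene. Members, the pathway list and the marker lists were chosen with earlier results of these data known. Named genes were the 10 members, pathway genes called in PIM H3K18la and in neither BMDM nor GAS, and neighbours under a member's peak; the other pathway genes named were chosen after their values were seen. Values of some single pathway genes are not reported here.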

Additional observations from a re-analysis of the deposited data

How the results depend on the processing

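For 42 counts and medians, 232 values were recomputed under the alternatives, of which 177 stayed within 1.5 times, 51 moved by more than 1.5 times (any move to or from 0 included) and 4 turned their sign. Leaving out a replicate was not possible because the lists were called on merged replicates. No paired analysis was possible because no result comes from a test. Other promoter definitions and overlaps moved 1 value, GAS H3K27me3, which had 1 member with promoters of 1000 bp on each side. Shares in parentheses are those of all genes under the same setting. With the 5000 strongest peaks of each list, members called for H3K18la were 3 in mESC-ser (12.3%), 1 in mESC-2i (14%), 2 in MB (4.51%), 3 in MT (6.38%), 3 in GAS (8.3%), 0 in BMDM (4.72%), 1 in PIM (7.69%) and 2 in ADIPO (9.16%). For H3K27ac they were 2 in mESC-ser (17.4%), 3 in GAS (13.9%), 0 in BMDM (16%), 3 in PIM (19.1%) and 3 in ADIPO (14.4%), for H3K4me3 5 in mESC-2i (24.1%) and 5 in PIM (24.4%), and for H3K27me3 1 in mESC-2i (10.9%), 1 in MT (11.8%) and 0 in GAS (9.08%). For H3K18la, PIM and not BMDM then held 1 (4.41%), PIM and neither BMDM nor GAS 1 (3.3%), and PIM, BMDM and GAS 0 (1.26%). In PIM, H3K4me3 with H3K27me3 held 1 (2.11%) and H3K18la with H3K27me3 held 0 (0.731%). Gene windows with H3K18la were 4 in GAS (15.1%), 0 in BMDM (11.2%) and 1 in PIM (14.4%). With the lists of a mark at equal called bases, members called for H3K18la were 1 in mESC-ser (5.54%), 0 in mESC-2i (3.75%), 2 in MB (4.39%), 0 in MT (2.31%), 2 in GAS (3.37%), 1 in PIM (6.84%) and 2 in ADIPO (4.99%). For H3K27ac they were 2 in mESC-ser (35%), 1 in GAS (4.27%), 3 in BMDM (27.7%) and 4 in ADIPO (19%), and for H3K27me3 1 in mESC-2i (9%), 1 in MT (6.26%) and 0 in GAS (10.6%). For H3K18la, PIM and not BMDM then held 0 (1.14%), BMDM and not PIM 4 (12.8%), PIM, BMDM and GAS 0 (0.896%), and GAS and neither macrophage 1 (1.67%). For H3K27ac, PIM and not BMDM held 5 (21.4%). H3K18la with H3K27me3 in PIM held 0 (0.529%), and gene windows with H3K18la were 3 in GAS (6.18%) and 1 in PIM (13%). Both alternatives keep fewer peaks by construction, except that at equal called bases the smallest list of a mark (BMDM for H3K18la, PIM for H3K27ac) is unchanged. The median percentile of called members minus that of all called genes for H3K18la was 6.49 in GAS, 9.59 in BMDM and -24.8 in PIM by total signal. By maximum signal it was 13.8, -16.0 and 0.863, and by mean signal 11.99, -20.2 and 0.992. The cause was not tested. Without a depth for each list, a promoter without a peak is not shown to lack the mark.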
